A study of Mus musculus with 2 samples.

Results

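Secreted ligands of the TGF-beta and BMP families and the extracellular proteins that bind and block them were examined in cultured adipose stromal cells. The 10 genes were Tgfb1, Tgfb2, Tgfb3, Inhba, Bmp4, Bmp7 and Gdf10 for the ligands and Grem1, Fst and Nog for the antagonists, chosen by name out of 27995 genes listed in both libraries, and all 10 were found. The ligands of this family are secreted as dimers that assemble type I and type II serine/threonine kinase receptors. TGF-beta and activin signals pass through SMAD2 and SMAD3, and BMP signals pass through SMAD1, SMAD5 and SMAD9. In adipose tissue BMP4 and BMP7 are known as inducers of adipocyte commitment and of brown adipocyte development, whereas TGF-beta and activin A are known to hold precursors in an undifferentiated, proliferative state.

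The stromal vascular fraction was taken from pooled inguinal white (iWAT) and pooled interscapular brown (iBAT) fat of C57BL/6N mice aged 8 to 12 weeks, and was grown to 80% confluency in high-glucose DMEM. In each depot the cultures were left untreated or exposed for 48 h to 5.5 nM of FGF1, FGF2 or FGF8, and the 4 cultures were tagged, pooled at 10000 cells each and sequenced as 1 library. No tag per cell was used here, so every value is an average over the 4 treatments and no treatment comparison was made. With 1 library per depot there is no replicate, so the differences below have no replicate check and no test, and every interval covers counting error only.

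The iWAT library held 503611913 UMIs in 29962 cells and the iBAT library 815235820 UMIs in 28636 cells, and 29744 and 28215 cells passed the filters with medians of 16204 and 27235 UMIs. The libraries shared 8 cell barcodes. They also differed in sex-linked transcripts, with Xist at 345 UMIs per 1000000 (CPM) in iWAT against 0.0505 CPM in iBAT, and Ddx3y at 1.20 and 81.9 CPM, so depot, sex of the cells and library cannot be told apart.

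Cells were assigned to classes by at least 1 UMI of Pdgfra, Adipoq, Epcam, Sox10, Ptprc or Pecam1, and a cell could belong to several. Pdgfra-positive cells were 58.7% of kept cells in iWAT (17460 cells) and 91.9% in iBAT (25927 cells). These shares were not thinned, so they also depend on the unequal depth of the libraries. The mesenchymal marker list (Col1a1, Dcn, Lum and others) reached a summed 28835 and 13705 CPM in Pdgfra-positive cells, with 9 of 10 markers at 10 CPM or more in each library. Several other classes did not carry the cells that their marker names. In iWAT the 2887 Sox10-positive cells had 3580 CPM of epithelial markers against 272 CPM of Schwann cell markers, and 83.8% of them had an Epcam UMI. In iBAT the 111 Epcam-positive cells had only 33.3 CPM of epithelial markers, with 7 of 10, Cdh1 among them, at 0. In iWAT only 34 cells had an Adipoq UMI, and Plin1 was at 0 in them. Classes compared below were therefore also gated on a second marker (Dcn with Pdgfra, Plin1 with Adipoq, Cdh1 with Epcam, Laptm5 with Ptprc, Cdh5 with Pecam1), and a strict gate further required 0 UMIs of the other 5 class markers. Where a class is set against the other Pdgfra-positive cells, those are all cells with at least 1 Pdgfra UMI and 0 UMIs of the class marker, with no second marker required. The second marker left 4078 Epcam-, 147 Ptprc- and 38 Pecam1-positive cells in iWAT, and 86 Adipoq-, 221 Ptprc- and 266 Pecam1-positive cells in iBAT.

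Inhba, which encodes the activin A subunit, was the most abundant member in iWAT Pdgfra-positive cells, and Grem1, a secreted BMP antagonist, was the most abundant in iBAT. In iWAT Inhba stood at 1594 CPM and ranked 61 among all genes. In iBAT it stood at 442 CPM and ranked 341. Inhba was thus 3.61-fold higher in iWAT (95% interval 3.59 to 3.63). Grem1 was measured at 273 CPM in iWAT against 701 CPM in iBAT, 2.57-fold higher in iBAT (2.55 to 2.59), and its rank moved from 565 to 209. Fst, which encodes follistatin, the soluble antagonist of activins, was measured at 97.1 CPM in iWAT against 218 CPM in iBAT, 2.24-fold higher in iBAT (2.22 to 2.27). Fst thus differed between the depots in the direction opposite to Inhba, whereas Fstl3, which encodes another activin-binding antagonist, went with Inhba, at 118 CPM in iWAT against 53.4 CPM in iBAT.

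Bmp4 had the largest depot ratio of the members. In 17460 iWAT cells 55 Bmp4 UMIs were counted, or 0.169 CPM (0.127 to 0.219), and in 25927 iBAT cells 7486 were counted, or 10.1 CPM (9.84 to 10.3). The ratio was 59.7 (45.8 to 79.4). Bmp4 passed the 1 CPM minimum only through iBAT, so its rank among the genes tested is not read. The ratio depended on the gate: on the log2 scale it was 5.90 with at least 1 Pdgfra UMI, 5.47 with at least 3 and 4.81 with at least 5. Bmp4 was nevertheless a low transcript in iBAT, with 69.7 Grem1 UMIs for each Bmp4 UMI there and 1619 in iWAT.

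The 3 TGF-beta genes, which encode secreted latent cytokines, were all higher in iWAT but by less than 2-fold. Tgfb1 was measured at 26.5 CPM in iWAT against 13.5 CPM in iBAT, an iWAT over iBAT ratio of 1.97 (1.91 to 2.03). Tgfb2 was measured at 55.9 CPM in iWAT against 29.4 CPM in iBAT, a ratio of 1.90 (1.87 to 1.94). Tgfb3 was measured at 52.6 CPM in iWAT against 40.7 CPM in iBAT, a ratio of 1.29 (1.27 to 1.32). Tgfb1 lay just below the 2-fold threshold and Fst, at 2.24, was the nearest member above it. With TMM scaling the log2 ratio of Tgfb1 was -1.01, past the threshold. Of all UMIs of the 3 genes, Tgfb2 gave 41.4% in iWAT and 35.2% in iBAT, Tgfb3 gave 38.97% and 48.69%, and Tgfb1 gave 19.6% and 16.1%. In iBAT Tgfb3 was the highest of the 3 under each of the 3 Pdgfra gates. In iWAT Tgfb2 was above Tgfb3 beyond their intervals only with 1 Pdgfra UMI. With Dcn required as well they stood at 50.8 and 50.4 CPM, and with cells carrying any other class marker left out too at 50.6 CPM (49.7 to 51.5) and 50.5 CPM (49.6 to 51.4), intervals that overlap.

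Gdf10, also known as BMP3b, was close between the depots, at 17.3 CPM in iWAT against 20.7 CPM in iBAT (iBAT over iWAT 1.20, 1.16 to 1.24). Its direction depended on the gate, with a log2 ratio of 0.26 for cells with at least 1 Pdgfra UMI and -0.76 for cells with at least 5. Bmp7 and Nog, which encodes the BMP antagonist noggin, were below 1 CPM in both libraries and were not counted. Bmp7 stood at 0.135 CPM in iWAT (44 UMIs) and 0.272 CPM in iBAT (202 UMIs). Nog stood at 0.199 CPM in iWAT (65 UMIs) and 0.929 CPM in iBAT (691 UMIs), a ratio of 4.67 (3.61 to 6.11).

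Of the 8 members with at least 1 CPM in a library, 3 were at least 2-fold higher in iBAT (Bmp4, Grem1 and Fst) and 1 in iWAT (Inhba). Over all 13747 genes tested the same rule called 6.29% higher in iBAT, 6.67% higher in iWAT and 13.0% either way. Over all kept cells 9 members had at least 1 CPM, and 4 of them were higher in iBAT (Nog in addition) and 1 in iWAT. Over the same cells 6.53%, 7.78% and 14.3% of all genes were called higher in iBAT, higher in iWAT and either way. Bmp4 in both counts, and Nog in the second, had under 1 CPM in iWAT and passed the minimum only through iBAT. The rule could not have called them higher in iWAT, so their place in these counts is not read as a result. The median log2 iBAT over iWAT was -0.06 over the 8 members and 0.05 over all genes tested. The order of levels in iWAT was Inhba, Grem1, Fst, Tgfb2, Tgfb3, Tgfb1, Gdf10, Nog, Bmp4 and Bmp7, where the counting intervals of Nog (0.154 to 0.254 CPM), Bmp4 and Bmp7 (0.0979 to 0.181 CPM) overlapped. In iBAT it was Grem1, Inhba, Fst, Tgfb3, Tgfb2, Gdf10, Tgfb1, Bmp4, Nog and Bmp7, and no neighbouring intervals overlapped.

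**Figure D1:**
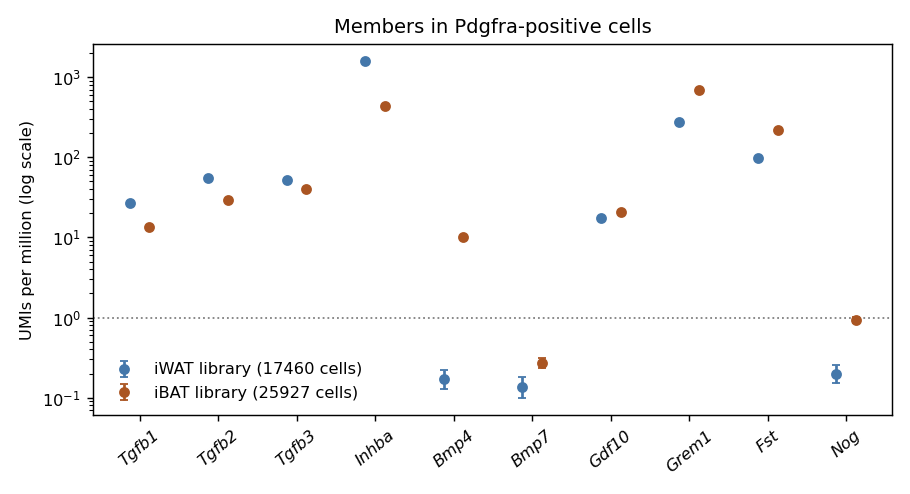
Level of each member in Pdgfra-positive cells of the iWAT and iBAT libraries, in CPM on a log axis. Points are library values, bars are exact Poisson 95% intervals (mostly smaller than the points) and the dotted line marks the 1 CPM minimum. Inhba falls from 1594 in iWAT to 442 in iBAT, while Grem1, Fst and Bmp4 lie higher in iBAT and Bmp4 crosses the line.

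Epithelial markers were unequal between these cells, with a summed 118 CPM and 5 of 10 markers at 10 CPM or more in iWAT against 1.12 CPM and 0 of 10 in iBAT, and 10.4% of iWAT Pdgfra-positive cells had an Epcam UMI against 0.390% in iBAT. Under the strict gate, which keeps no cell with an Epcam UMI, Inhba stood at 1597 CPM in iWAT against 455 CPM in iBAT, Grem1 at 287 and 688 CPM, Fst at 98.9 and 219 CPM, and Bmp4 at 0.171 and 12.0 CPM. Epithelial markers were still unequal under that gate, at a summed 20.7 CPM in iWAT against 0.935 CPM in iBAT, and their part in the depot ratios was not tested.

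The ratio of ligand to antagonist transcripts was taken for Inhba and Fst, and not for Fstl3. Inhba was also set beside Grem1, a BMP antagonist, so the ratio to Grem1 is not one of a ligand to its antagonist. For each Fst UMI there were 16.4 Inhba UMIs in iWAT Pdgfra-positive cells (16.2 to 16.6) and 2.03 in iBAT (2.02 to 2.04). For each Grem1 UMI there were 5.84 Inhba UMIs in iWAT and 0.630 in iBAT. Grem1 and Fst kept nearly the same proportion to each other, with 2.81 Grem1 UMIs per Fst UMI in iWAT and 3.22 in iBAT. Inhbb, which encodes the activin B subunit, was measured at 54.2 CPM in iWAT against 76.4 CPM in iBAT, and Inhba UMIs exceeded Inhbb UMIs 29.4-fold in iWAT and 5.78-fold in iBAT.

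On GRCm39 (GENCODE M39), all 10 members are protein-coding genes. Inhba lies on the plus strand at chr13:16186373-16206206 with 3 exons, Grem1 on the minus strand at chr2:113576509-113589000 with 2 exons, Fst on the minus strand at chr13:114588731-114595521 with 6 exons, and Bmp4 on the minus strand at chr14:46620250-46636745 with 4 exons. The last exon of 5 members (Tgfb2, Tgfb3, Bmp4, Bmp7 and Inhba) overlaps a gene annotated on the opposite strand, and whether counting used strand is not given in the sources used here, so reads of such pairs may not be separable. For Inhba the partner is the lncRNA Gm48444, listed at 34.4 CPM in iWAT against 9.46 CPM in iBAT. For Tgfb3 it is the protein-coding gene Ttll5, listed at 44.5 and 27.1 CPM. Tgfb1, Grem1 and Nog overlap no other annotated gene, and the 2 lncRNAs that overlap Fst do not reach its last exon.

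The 250 bases before the start of Inhba, Grem1 and Bmp4 are shown because these genes had the largest depot ratios among the members with a RefSeq promoter entry (GRCm38.p6). Of the 10 members 6 had an entry: Tgfb1, Tgfb2, Bmp4, Inhba, Gdf10 and Grem1. Each sequence reads 5′ to 3′ on the strand of the gene and ends at the base before the start. Capitals mark matches, on either strand, to 6 short sequences: the TATA box, read as TATAAA, the CCAAT box, the GC box, read as GGGCGG, the AP-1 site, read as TGANTCA, the cAMP response element (CRE), read as TGACGTCA, and a GC-rich SMAD-binding element, read as GGCGCC. A GC box can overlap a GGCGCC. The windows are chr13:16011601-16011850 (plus strand), chr2:113758649-113758898 (minus strand) and chr14:46390670-46390919 (minus strand).
Inhba: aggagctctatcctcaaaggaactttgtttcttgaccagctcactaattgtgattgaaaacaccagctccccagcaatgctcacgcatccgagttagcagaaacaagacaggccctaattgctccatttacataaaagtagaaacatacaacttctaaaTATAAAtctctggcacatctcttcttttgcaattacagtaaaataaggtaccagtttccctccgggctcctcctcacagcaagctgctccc
Grem1: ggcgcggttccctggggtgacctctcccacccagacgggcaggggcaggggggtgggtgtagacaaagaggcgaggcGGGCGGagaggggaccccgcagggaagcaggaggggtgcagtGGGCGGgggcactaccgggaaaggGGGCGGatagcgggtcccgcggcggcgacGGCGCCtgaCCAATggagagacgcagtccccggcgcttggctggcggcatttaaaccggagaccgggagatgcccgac
Bmp4: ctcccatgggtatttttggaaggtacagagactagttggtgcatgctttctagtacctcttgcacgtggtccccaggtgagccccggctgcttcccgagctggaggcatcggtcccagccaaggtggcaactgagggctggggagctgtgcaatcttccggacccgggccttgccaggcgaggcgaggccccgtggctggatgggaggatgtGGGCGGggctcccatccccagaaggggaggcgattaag
The Inhba window held 1 TATA box, beginning 91 bases before the start, and its GC content was 43.2%. The Grem1 window held 3 GC boxes, 1 CCAAT box and 1 GGCGCC, with a GC content of 72.0%. The Bmp4 window held 1 GC box, with a GC content of 63.2%. Among 32851 promoter windows of the same length, 12.4% held the TATA box, 33.8% the CCAAT box, 32.7% the GC box and 9.59% GGCGCC, and the AP-1 site (6.75%) and the CRE (1.55%) were in none of the 3 windows.

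The share of cells with a UMI was read for each member. Because iBAT cells were sequenced more deeply, each cell was thinned to 10000 UMIs, which left out 1789 shallower iWAT Pdgfra-positive cells and no iBAT cell. Inhba was found in 98.9% of iWAT cells (98.8 to 99.1) against 81.8% of iBAT cells (81.4 to 82.3). Grem1 was found in 52.2% of iWAT cells and 80.9% of iBAT cells, and Fst in 47.4% and 69.1%. Inhba was thus detected in nearly every iWAT Pdgfra-positive cell, whereas Grem1 was detected at this depth in a smaller share of iWAT than of iBAT cells. Before thinning the shares were 99.3% and 92.7% for Inhba, 60.0% and 90.8% for Grem1, and 59.6% and 87.4% for Fst.

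The other members were found in a minority of cells. Tgfb1 was found in 22.0% of iWAT and 11.9% of iBAT cells, Tgfb2 in 31.5% and 17.6%, and Tgfb3 in 33.1% and 26.5%. Gdf10 was found in 7.83% of iWAT and 11.1% of iBAT cells, and Bmp4 in 0.147% and 5.98%. Nog reached 0.949% of iBAT cells, and Bmp7 did not exceed 0.262% in either library.

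Free RNA gives UMIs in cells that do not express a gene, so the same shares were read in the Ptprc-positive cells without any of the other class markers (92 cells in iWAT with a median of 10899 UMIs, 124 in iBAT with a median of 20835 UMIs). Thinning left out 36 of the iWAT cells and none of the iBAT cells. Inhba was then found in 45 of 56 cells in iWAT (80.4%, 67.6 to 89.8) and 33 of 124 in iBAT (26.6%, 19.1 to 35.3), Grem1 in 16.1% and 25%, and Fst in 7.14% and 12.9%. The stromal shares of the 3 genes lay above these values in both libraries. The level of Inhba in those Ptprc-positive cells was 242 CPM in iWAT against 56.2 CPM in iBAT. Mesenchymal markers still summed to 1688 and 810 CPM in them. The parts of free RNA, doublets and expression by the Ptprc-positive cells themselves in these values were not tested.

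**Figure D2:**
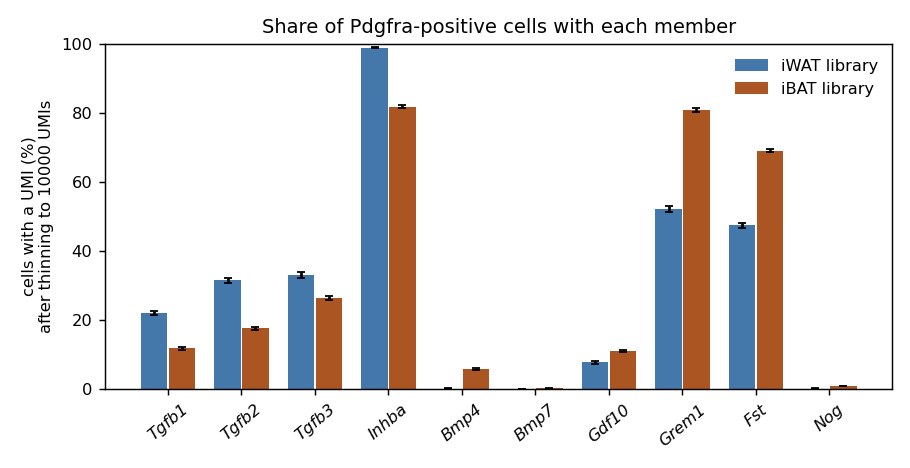
Share of Pdgfra-positive cells with at least 1 UMI of each member after thinning every cell to 10000 UMIs. Bars are the iWAT and iBAT libraries, and error bars are exact Clopper-Pearson 95% intervals. Inhba is in 98.9% of iWAT cells, while Grem1 and Fst are in more iBAT than iWAT cells.

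The members differed in the share of their UMIs held by few stromal cells. These shares were not thinned and also depend on the number of UMIs per cell. In iWAT that number averaged 29.8 for Inhba, 5.10 for Grem1, 1.82 for Fst and 0.323 for Gdf10. In iBAT it averaged 12.7 for Inhba, 20.1 for Grem1, 6.25 for Fst and 0.595 for Gdf10. Only 10.4% of iWAT and 17.9% of iBAT Pdgfra-positive cells had a Gdf10 UMI. In iWAT the 10% of Pdgfra-positive cells with the highest level held 28.9% of Inhba UMIs, 43.3% of Fst UMIs, 58.2% of Grem1 UMIs and 98.7% of Gdf10 UMIs. In iBAT such cells held 38.2% of Inhba, 37.8% of Fst, 39.2% of Grem1 and 85.4% of Gdf10 UMIs. The share of Grem1 UMIs in such cells was higher in iWAT than in iBAT. Its median cell stood at 64.3 CPM and the 90th percentile at 741 CPM in iWAT, against 381 and 1767 CPM in iBAT. The part of the unequal number of Grem1 UMIs per cell in this was not tested.

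Which class had the highest level of a member depended on the gate and on whether cells without any class marker were counted. With a second marker, among members with at least 1 CPM in a class of 50 cells or more, 2 of 8 in iWAT (Tgfb1 and Bmp7) and 4 of 9 in iBAT (Tgfb1, Tgfb2, Bmp4 and Nog) had their highest level in another class, not counting the cells without any class marker. Members below 1 CPM in Pdgfra-positive cells, Bmp7 in iWAT and Nog in iBAT, entered this count only through the class where they were higher, so nothing is read from their place in it. The highest level lay in another class for 76.2% of all genes tested in iWAT and 84.6% in iBAT. With a gate of 1 UMI the counts were 4 of 8 (81.2% of all genes) and 7 of 9 (93.1%). The 7294 iWAT cells without any class marker had more Inhba than the Pdgfra-positive cells gated with Dcn (1732 against 1584 CPM), more Tgfb2 (84.8 against 50.8 CPM) and more Tgfb3 (69.7 against 50.4 CPM), and Grem1 (293 against 283 CPM) and Fst (100.02 against 98.4 CPM) were slightly above. In the 1443 such cells of iBAT, Inhba (563 against 451 CPM), Tgfb2 (90.5 against 27.1 CPM) and Tgfb3 (89.8 against 40.8 CPM) were higher, whereas Grem1 (630.5 against 684 CPM) and Fst (159 against 218 CPM) were lower.

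Bmp4 was highest in the Pecam1-positive cells of iBAT. Endothelial markers summed to 4225 CPM in these 266 cells, with 10 of 10 at 10 CPM or more, but mesenchymal markers summed to 6228 CPM and 53.4% of the cells had a Pdgfra UMI. Under the strict gate mesenchymal markers still summed to 3073 CPM, and their part in the levels was not tested. Bmp4 stood at 141 CPM there (133 to 151) against 9.71 CPM in the other Pdgfra-positive cells, 14.6-fold higher (13.6 to 15.6), and after thinning it was found in 47.0% of them. Over all genes, 9.42% were at least 2-fold higher in these cells than in the other Pdgfra-positive cells and 8.06% at least 2-fold lower. Under the strict gate, which left 120 cells, Bmp4 stood at 230 CPM and was found in 64.2% of thinned cells. In iWAT the 38 Pecam1-positive cells held 3 Bmp4 UMIs, 4.88 CPM (1.01 to 14.2). No Bmp4 UMI was found in the 147 Ptprc-positive cells of iWAT, which allows up to 1.62 CPM.

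Tgfb2 was also high in Pecam1-positive cells of iBAT, at 90.1 CPM against 29.2 CPM in the other Pdgfra-positive cells, a ratio of 3.09 (2.85 to 3.35). In the 38 iWAT cells it stood at 117 CPM (91.6 to 147). Tgfb3 stood at 17.8 CPM in the iBAT cells, a ratio of 0.437 (0.363 to 0.522), and at 73.1 CPM in the 38 iWAT cells, a ratio of 1.39 (1.01 to 1.86), so its direction differed between the libraries. Under the strict gate the iWAT ratio was 1.53 (0.837 to 2.57) over 17 cells, an interval that includes no difference. In those 38 cells mesenchymal markers summed to 18813 CPM and endothelial markers to 1307 CPM. Fst stayed at 170 CPM in the iBAT Pecam1-positive cells, a ratio of 0.781, and at 128 CPM under the strict gate, where Grem1 stood at 66.8 CPM and Gdf10 at 1.95 CPM.

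Tgfb1 was highest in Ptprc-positive cells in both libraries, where 10 of 10 immune markers were at 10 CPM or more. Mesenchymal markers also summed to 5157 CPM in these cells of iWAT and to 2720 CPM in those of iBAT, and 17.01% and 39.8% of them had a Pdgfra UMI. The part of these markers in the levels was not tested. It stood at 63.0 CPM in iWAT (52.1 to 75.5) and at 28.01 CPM in iBAT (23.8 to 32.8), 2.38-fold (1.97 to 2.86) and 2.09-fold (1.77 to 2.45) above the other Pdgfra-positive cells. Of all genes, 17.5% in iWAT and 12.6% in iBAT were at least 2-fold higher in Ptprc-positive cells, and 18.6% and 21.2% at least 2-fold lower. Of all Tgfb1, Tgfb2 and Tgfb3 UMIs in these cells, Tgfb1 gave 71.8% in iWAT and 70.3% in iBAT. The order of the depots for Tgfb1 was thus the same in Ptprc-positive as in Pdgfra-positive cells. Tgfb2 and Tgfb3 stood at 14.0 and 10.8 CPM in the iWAT cells and at 5.46 and 6.37 CPM in the iBAT cells. Under the strict gate, where mesenchymal markers summed to 1688 and 810 CPM, Tgfb1 stood at 71.5 and 30.7 CPM, whereas Tgfb2 and Tgfb3 were each at 7.53 CPM in iWAT (8 UMIs each) and at 1.85 and 3.70 CPM in iBAT (5 and 10 UMIs).

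Inhba was the most abundant member in the Epcam-positive cells of iWAT, as in the other iWAT classes with cells. Epithelial markers summed to 4390 CPM in the Epcam-positive cells, with 10 of 10 at 10 CPM or more. Inhba stood at 986 CPM there (977 to 995), 0.611 of the level in the other Pdgfra-positive cells (0.606 to 0.617). It was found in 95.9% of the cells deep enough to thin, with 1547 left out. Grem1 stood at 60.4 CPM there, Fst at 33.2 CPM and Gdf10 at 1.57 CPM. Of all genes, 13.0% were at least 2-fold higher in the Epcam-positive cells than in the other Pdgfra-positive cells and 14.4% at least 2-fold lower. There were 16.3 Inhba UMIs per Grem1 UMI in these cells (15.7 to 16.9) and 5.84 in Pdgfra-positive cells. Under the strict gate Inhba stood at 991 CPM in the Epcam-positive cells. Bmp7 stood at 2.36 CPM in the Epcam-positive cells gated with Cdh1 (1.96 to 2.82, 122 UMIs) and was found in 2.02% of thinned cells. In the other Pdgfra-positive cells it stood at 0.0820 CPM (24 UMIs). Bmp7 passed the 1 CPM minimum only through this class, so no ratio is read. Nog stood at 0.930 CPM. Mesenchymal markers still summed to 6009 CPM in these Epcam-positive cells. Under the strict gate they summed to 5078 CPM, above the 4612 CPM of epithelial markers. The part of mesenchymal markers in the levels was not tested.

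In the 86 adipocyte-marked cells of iBAT, adipocyte markers summed to 25112 CPM with 10 of 10 at 10 CPM or more. Nog stood at 11.9 CPM there (7.98 to 17.1, 29 UMIs) and at 0.916 CPM in the other Pdgfra-positive cells. It thus passed the 1 CPM minimum only through this class, so no ratio is read. Of all genes, 12.7% were at least 2-fold higher in the 86 cells and 12.7% at least 2-fold lower. Of the 86 cells 77.9% also had a Pdgfra UMI, and in the 19 cells without any other class marker Nog stood at 40.7 CPM (25.5 to 61.7; 22 UMIs). Inhba was low in the 86 cells, at 56.7 CPM, 0.128 of the level in the other Pdgfra-positive cells (0.108 to 0.151). Grem1 stood at 157 CPM (ratio 0.224), Fst at 99.4 CPM (0.456), Tgfb2 at 11.5 CPM (0.391) and Tgfb3 at 9.45 CPM (0.232). In the 19 cells Inhba was lower, at 20.4 CPM (ratio 0.0460, 11 UMIs), as were Grem1 at 16.7 CPM (0.0237, 9 UMIs) and Fst at 40.7 CPM (0.187, 22 UMIs). Tgfb2 stood at 7.41 CPM there (0.252, 0.0686 to 0.645, 4 UMIs) and Tgfb3 at 1.85 CPM (0.0456, 0.00115 to 0.254, 1 UMI). The intervals of Tgfb2 and Tgfb3 include their ratios in the 86 cells. Mesenchymal markers summed to 6361 CPM in the 86 cells and to 1426 CPM in the 19, and their part in the levels was not tested.

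Cells with none of the 6 class markers were 24.5% of kept cells in iWAT and 5.11% in iBAT, shares that were not thinned. Their median depth was 14844 UMIs in iWAT and 20947 in iBAT, against 18119 and 27838 in Pdgfra-positive cells. In both libraries the cells without a class marker carried more Tgfb2 and Tgfb3 than Pdgfra-positive cells. Tgfb2 stood at 84.8 CPM in iWAT against 90.5 CPM in iBAT and Tgfb3 at 69.7 and 89.8 CPM. Inhba stood at 1732 and 563 CPM in them, and Gdf10 at only 4.52 and 5.09 CPM. Mesenchymal markers summed to 27075 and 15630 CPM, and in iBAT skeletal muscle markers reached 1208 CPM with 7 of 10 at 10 CPM or more (21.2 CPM and 0 of 10 in iWAT), whose part in these levels was not tested. Of 9 members at 1 CPM or more, 3 were higher in iBAT (Bmp4, Grem1 and Nog) and 1 in iWAT (Inhba). Of all genes, 8.83% were higher in iBAT, 6.50% in iWAT and 15.3% either way. Bmp4 and Nog, each at 0.231 CPM in iWAT, passed the minimum only through iBAT, so their place in this count is not read as a result. The depot ratio of Tgfb2 was 1.07 in these cells, on the log2 scale 0.10, where Pdgfra-positive cells gave -0.93.

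**Figure D3:**
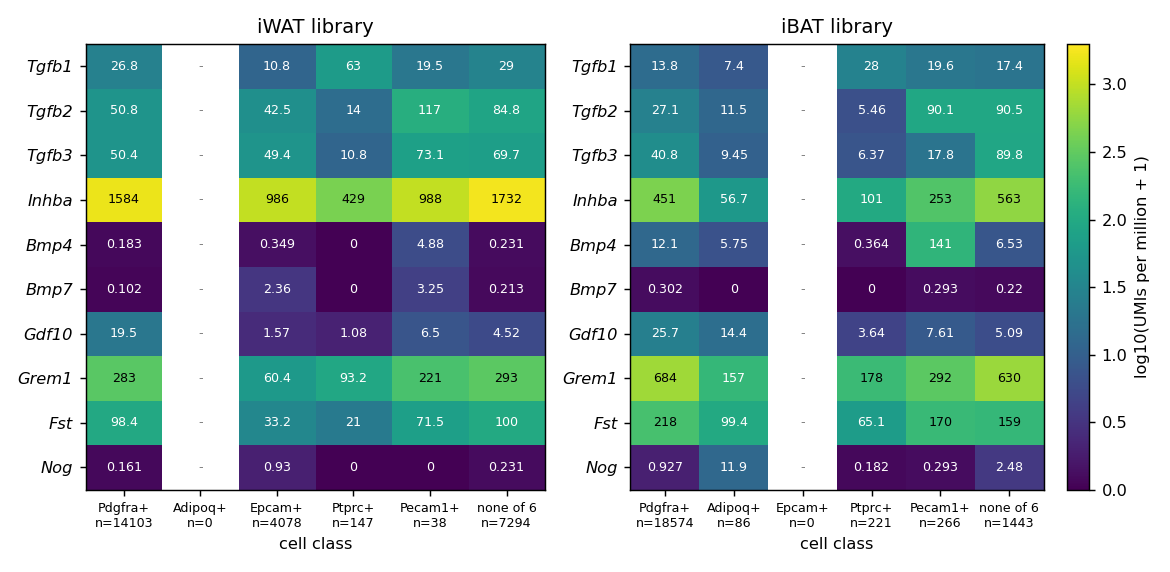
Level of each member in CPM by cell class, gated on a second marker, in the iWAT and iBAT libraries. Colour is log10 of the level plus 1, numbers are the levels, n is the number of cells and a dash marks a class without cells. Bmp4 peaks in iBAT Pecam1-positive cells and Tgfb1 in Ptprc-positive cells, while Inhba leads every iWAT class with cells.

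Within Pdgfra-positive cells, levels were compared between cells above the 75th percentile of a state gene and the other cells, for 9 state genes. Where that percentile was 0, all cells with a UMI were taken. Acta2 encodes smooth muscle actin, a component of contractile myofibroblasts. Cells high in Acta2 had more Tgfb2, at 98.5 CPM against 40.4 CPM in iWAT (ratio 2.44, 2.37 to 2.51) and 65.3 CPM against 17.2 CPM in iBAT (3.81, 3.71 to 3.91). Tgfb3 was higher in them as well, by 2.77-fold in iBAT (2.71 to 2.83) and by 0.93 on the log2 scale in iWAT. Grem1 was lower, at 148 CPM against 318 CPM in iWAT (0.465, 0.456 to 0.474), with a log2 ratio of -0.79 in iBAT. Over all genes tested, 0.539% in iWAT and 1.18% in iBAT were at least 2-fold higher in Acta2-high cells, and 1.53% and 1.98% at least 2-fold lower.

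Gdf10 and Bmp4 followed other states. Icam1 marks a committed preadipocyte population in iWAT, and Meox2 is a homeobox gene of mesodermal development. Gdf10 in Icam1-high cells stood at 33.7 CPM against 11.7 CPM in iWAT (2.87-fold, 2.72 to 3.02) and at 51.9 CPM against 10.8 CPM in iBAT (4.82-fold, 4.67 to 4.98). In the 930 iWAT cells with a Meox2 UMI, Gdf10 stood at 111 CPM against 11.9 CPM in the rest (9.36-fold, 8.86 to 9.89), and in iBAT the ratio was 3.23 (3.13 to 3.33). Bmp4 in iBAT was 5.43-fold higher in Icam1-high cells (5.18 to 5.69) and 4.59-fold higher in Meox2-high cells (4.38 to 4.81). By Acta2, Gdf10 had a log2 ratio of -1.31 in iWAT and -0.25 in iBAT, and Bmp4 had 1.12 in iBAT. By Pi16, a marker of interstitial progenitors, Gdf10 had 1.22 in iWAT and Bmp4 had 1.13 in iBAT. The shares of all genes at least 2-fold higher were 0.380% in iWAT and 2.26% in iBAT for Icam1, and 1.87% and 0.988% for Meox2.

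Cells with Dpp4, a marker of early interstitial progenitors, had less Bmp4 in iBAT, at 4.83 CPM against 10.3 CPM (0.468, 0.399 to 0.546), where 0.841% of all genes were at least 2-fold lower. Gdf10 had a log2 ratio of -0.91 by Dpp4 in iWAT and -0.14 in iBAT. Inhba had log2 ratios between -0.29 and 0.36 in iWAT and between -0.31 and 0.65 in iBAT over the 9 states, highest for Il11 in both. Fst lay between -0.27 and 0.66 in iWAT and between -0.08 and 0.32 in iBAT. Of 63 member and state pairs with at least 1 CPM in iWAT, 5 (7.94%) were at least 2-fold higher in the high cells and 2 (3.17%) lower, and of 79 in iBAT, 8 (10.1%) were higher and 1 (1.27%) lower. Over all genes the same counts of pairs gave 1.47% higher and 1.21% lower in iWAT, and 1.27% and 0.890% in iBAT.

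The shares of all genes past 2-fold in the other states were mostly small. By Dpp4, 0.172% of genes were higher and 1.15% lower in iWAT, and 0.327% higher in iBAT. By Pi16, with only 98 positive iWAT cells, 6.84% were higher and 3.88% lower in iWAT, and 1.75% higher and 1.18% lower in iBAT. By Fabp4, 0.374% were higher and 0.598% lower in iWAT, and 1.66% and 0.605% in iBAT. By Mki67, a marker of dividing cells, 2.27% were higher and 0.867% lower in iWAT, and 2.33% and 0.800% in iBAT. By Il11, 0.180% were higher and 0.307% lower in iWAT, and 0.315% and 0.629% in iBAT. By Isg15, an interferon-induced gene, 0.217% were higher and 0.187% lower in iWAT, and 0.628% and 0.217% in iBAT. The shares lower in Meox2-high cells were 1.89% in iWAT and 1.09% in iBAT, and those lower in Icam1-high cells 0.261% and 0.669%.

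Members were also set against each other in the same way, and 4 of these pairs, chosen after their values were seen, are given for both libraries. Cells high in Tgfb3 had 2.59-fold more Tgfb2 in iBAT (2.52 to 2.66), and the ratio was 1.87 (1.82 to 1.93) in iWAT, below 2-fold. Of all genes, 1.20% in iBAT and 0.142% in iWAT were at least 2-fold higher in those cells. Cells with Bmp4 had 3.11-fold more Gdf10 in iBAT (3.00 to 3.22), where 2.12% of all genes were at least 2-fold higher. In the 50 iWAT cells with Bmp4 the ratio of Gdf10 was 1.498 (1.002 to 2.153), with 7.87% of all genes higher. The iBAT cells highest in Grem1 had less Bmp4, at 4.59 CPM against 11.9 CPM (0.385, 0.358 to 0.414), while in iWAT Bmp4 was under 1 CPM in both sets of cells. The shares of all genes at least 2-fold lower in Grem1-high cells were 1.21% in iBAT and 0.928% in iWAT. The iWAT cells highest in Inhba had less Gdf10, at 8.97 CPM against 20.4 CPM (0.441, 0.408 to 0.475), and in iBAT the ratio was 0.587 (0.563 to 0.612), which did not pass 2-fold. Of all genes, 0.809% in iWAT and 1.33% in iBAT were at least 2-fold lower in Inhba-high cells.

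**Figure D4:**
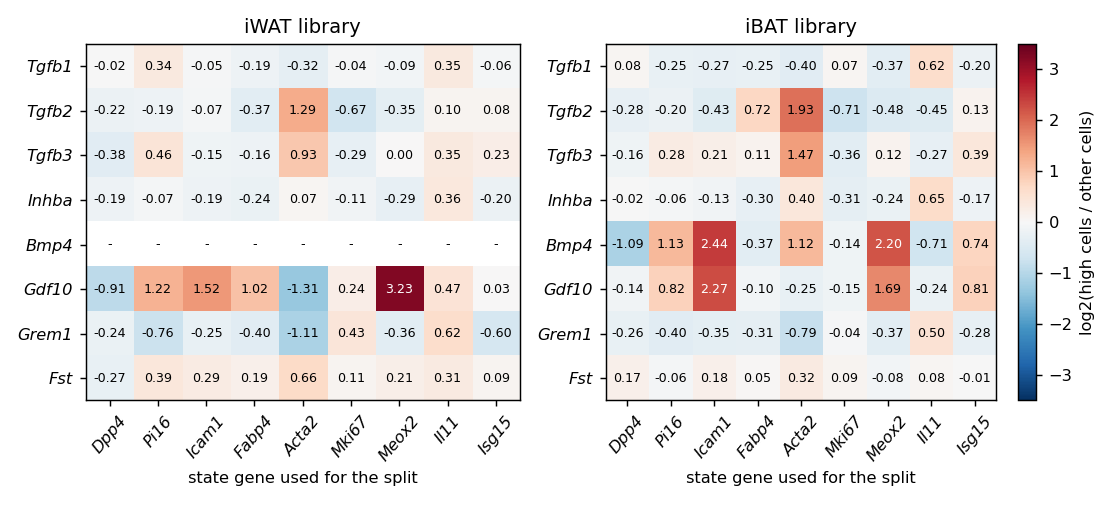
Ratio of the members, without Bmp7 and Nog, between Pdgfra-positive cells high in a state gene and the other Pdgfra-positive cells. Values are on the log2 scale, in the iWAT and iBAT libraries. Red is higher and blue lower in the state, and a dash marks levels under 1 CPM. Tgfb2 and Tgfb3 rise with Acta2 in both libraries, and Gdf10 rises with Icam1 and Meox2, as does Bmp4 in iBAT.

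The wider pathway was read from 7 lists by role, of which 94 of 96 genes were listed in both libraries (Gdf1 and Sost were not) and 73 had at least 1 CPM. Of the 73 genes 11 were at least 2-fold higher in iBAT and 7 in iWAT, and their median log2 ratio was 0.04. Over all genes tested 6.29% were higher in iBAT and 6.67% in iWAT. Bmp5 and Tgfbi, among the 11, passed the 1 CPM minimum only through iBAT, so nothing is read from their place in this count. Genes that respond to BMP signalling had a median log2 ratio of 1.31 over 8 genes, of which 5 were higher in iBAT and 0 in iWAT, against 6.29% of all genes. Id4 stood at 6.75 CPM in iWAT against 51.0 CPM in iBAT. Atoh8 stood at 5.85 and 22.9 CPM, Smad6, an inhibitory SMAD, at 17.3 and 63.1 CPM, and Id1 at 39.4 and 83.8 CPM. Id3, the highest of the list, was close at 395 and 505 CPM. Smad6 and Smad9 stand in this list and among the SMADs.

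Genes that respond to TGF-beta had a median log2 ratio of -0.58 over 10 genes, with 2 higher in iWAT and 1 in iBAT, where 6.67% and 6.29% of all genes were called. Col1a1, the main chain of type I collagen, stood at 17098 CPM in iWAT against 6242 CPM in iBAT. Cdkn2b, at 22.3 and 11.3 CPM, was just below 2-fold. Tgfbi, the 1 gene higher in iBAT, stood at 0.990 CPM in iWAT against 16.6 CPM in iBAT. It passed the 1 CPM minimum only through iBAT, so its place in this count is not read as a result.

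Among 10 other ligands 3 were higher in iBAT (Bmp5, Bmp2 and Gdf15) and 2 in iWAT (Gdf6 and Bmp8a), beside 6.29% and 6.67% of all genes. Gdf6 stood at 24.8 CPM in iWAT against 5.81 CPM in iBAT, and Gdf15, a stress-induced ligand, at 13.0 and 27.4 CPM. Bmp5 stood at 0.227 CPM in iWAT against 9.40 CPM in iBAT, a ratio of 41.5 (33.0 to 52.9), and passed the 1 CPM minimum only through iBAT. Among 10 other antagonists 1 passed 2-fold, where 13.0% of all genes did either way. It was Fstl3, higher in iWAT as given above. Fstl1 was the highest of that list, at 1680 and 1951 CPM.

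For the genes between ligand and response the counts stand beside 6.29% of all genes higher in iBAT, 6.67% higher in iWAT and 13.0% either way. Of 14 receptors and coreceptors 1 was higher in iBAT (Acvr1b, 7.99 and 16.3 CPM) and 1 in iWAT (Acvrl1, 49.6 and 23.8 CPM), and Tgfbr2, the highest, stood at 188 and 120 CPM. Of 13 genes of latency and activation 1 was higher in each depot, Itgb8 in iBAT and Itgb6 in iWAT, and Thbs1, the highest, stood at 4480 and 2499 CPM. Of 12 SMADs and regulators 2 were higher in iBAT (Smad6 and Smad9) and 0 in iWAT, and Ski was the highest at 109 and 159 CPM. Bmp2, Bmp5, Bmp8a, Itgb6, Itgb8 and Smad9, all below 10 CPM, are named to complete these counts and were chosen after their values were seen.

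**Figure D5:**
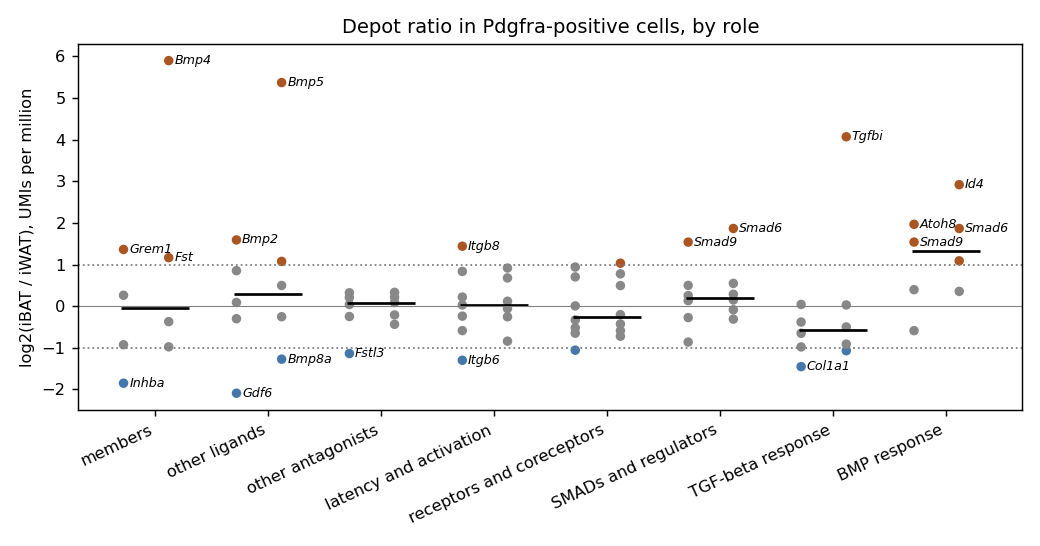
Ratio of iBAT over iWAT in Pdgfra-positive cells on the log2 scale, for the members and 7 lists of pathway genes. Each point is a gene with at least 1 CPM in a library, black lines are medians, dotted lines mark 2-fold, points past it are coloured and the most distant are named. The median of the BMP response list lies at 1.31, while the other medians lie between -0.58 and 0.29.

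The genes whose pattern over the 12 class-by-depot profiles (gates of 1 UMI) was most like that of a member were found by Pearson correlation of log2(CPM + 1) among 10956 genes. The profiles share cells and come from 2 libraries, so the values are descriptions. For Inhba the closest were Gm48444, the lncRNA on the opposite strand of its last exon (r = 0.993), F2rl1 (0.992) and Hspa4 (0.988). For Grem1 they were Thbd, Snhg3 and Ugdh (0.984 to 0.989), and for Fst they were Plac9, Fgf7 and Foxf2 (0.983 to 0.987). For Bmp4 they were Tmem204, Cd34 and Ace (0.952 to 0.971), and for Tgfb2 Pdlim1, Adamts4 and Cdc42bpa (0.962 to 0.968). Tgfb3 was closest to Casp12, Tbl1x and Yes1 (0.951 to 0.982), Tgfb1 to Mndal, Hilpda and Ifi203 (0.957 to 0.961), and Gdf10 to Scarf2, Atf5 and Snai2 (0.967 to 0.974). For the sparse members, Uts2b (0.967) and Slc5a8 (0.958) were among the closest to Bmp7, and Nog was closest to Trp53inp2, Csad and Atl3 (0.930 to 0.953). Among the members themselves the closest pair was Grem1 and Fst (0.909), followed by Gdf10 and Fst (0.890).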

How the data were processed

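Single-cell RNA was captured on the BD Rhapsody platform, with 1 whole-transcriptome library per depot. The authors processed the reads on a commercial cloud pipeline, and the deposited values are raw UMI counts per gene and cell. Per the submitters' processing notes, genome build mm39 and Seurat 5.0.0 were used. The pipeline version, gene annotation and handling of strand and multimapped reads are not given in the sources used here. The labels name 4 treatments and ages of 8 to 12 weeks, whereas the study's methods leave FGF8 out of the single-cell experiment and give ages of 8 to 10 weeks for cell isolation.

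Cells with more than 200 and fewer than 7500 genes and under 30% mt- UMIs were kept. UMIs were summed over the cells of a class and divided by the summed total, per 1000000 (CPM). UMIs count captured 3′ molecules, so no division by length was made. A gene was counted as differing at 2-fold or more with at least 1 CPM in 1 library. Intervals are at 95%, exact Poisson for levels, exact Clopper-Pearson for shares and exact conditional binomial for ratios, and cover counting error only. A count of 0 allows up to 3 counts. For shares, each cell was thinned to 10000 UMIs. No test was made, since each depot is 1 library. The calculations were tested on simulated data.

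All 10 members are named, and from each pathway list up to 4 genes with the largest ratio among those at 10 CPM or more plus the highest gene. The 3 genes of highest correlation are named for each member. Some items that these rules and gates select are not reported here. The members and lists were chosen with earlier results of these data known. Doublets were kept, and Scrublet (Scanpy 1.11.5) was run as an alternative. Other alternatives were gates, cell filters, scaling (edgeR 4.0.16 for TMM), averaging, low-value filters and folds. Python 3.11.15, NumPy 2.4.6, SciPy 1.17.1 and R 4.3.3 were used.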

Additional observations from a re-analysis of the deposited data

Results flagged for a closer look

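Tgfb2 and Gdf10 went in opposite directions with Fabp4, a fatty acid binding protein of differentiating adipocytes, in the Pdgfra-positive cells of the 2 libraries. Tgfb2 in Fabp4-high cells over the rest had a ratio of 0.772 in iWAT (0.744 to 0.800) and 1.64 in iBAT (1.60 to 1.69). Gdf10 had a ratio of 2.02 in iWAT (1.92 to 2.14) and 0.930 in iBAT (0.897 to 0.965). With 1 library per depot the difference between the libraries was not tested. Of 14 contrasts of classes with at least 50 cells in each library and 63 state contrasts, 12 had ratios on opposite sides of 1 with intervals that did not include it, and these 2 also reached 1.5-fold in a library. The share of all genes meeting the same rule was not computed, so nothing is read from the size of these counts. Tgfb3 in Pecam1-positive cells differed in the same way (1.39 in iWAT and 0.437 in iBAT) but was not among these contrasts, since iWAT had 38 such cells.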

How the results depend on the processing

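Each depot is 1 library, so no replicate could be left out. No paired analysis was possible because each group holds 1 library and no result comes from a test. Over 19 settings each, the strict gate (chosen after seeing the data) among them, the log2 iBAT over iWAT of Inhba lay between -1.89 and -1.80, of Grem1 between 1.25 and 1.42, of Fst between 1.13 and 1.31 and of Bmp4 between 4.81 and 6.14, whereas Gdf10 lay between -0.76 and 0.40. No called result changed sign. The count of members higher in iWAT was 2 in place of 1 with gates of 2 or 3 UMIs and with TMM or median-of-ratios scaling, which shifted all ratios by -0.03 on the log2 scale, 3 at 1.5-fold and 0 at 4-fold. The count higher in iBAT was 5 in place of 3 without a low-value filter and 1 at 4-fold. Of the other pathway genes, 11 higher in iBAT became 7 at 10 CPM, 20 without a filter, 3 at 4-fold and 18 at 1.5-fold, and 7 higher in iWAT became 11 without a filter, 1 at 4-fold and 16 at 1.5-fold. Members highest outside Pdgfra-positive cells were 4 in iWAT and 7 in iBAT with 1 UMI. In iWAT they were 7 with 2 UMIs, with an exclusive gate, and with the strict gate once the class without markers was included (chosen after seeing the data), and 2 with a second marker. In iBAT they were 4 with 2, 3 or 5 UMIs, a second marker or an exclusive gate. Of the member and state pairs, 2 lower in iWAT became 0 with any UMI of the state gene, and 1 lower in iBAT became 3 at the 90th percentile. With members in place of the state genes (chosen after seeing the data), 3 pairs in iWAT and 5 in iBAT were higher. Those are different pairs, so the counts are not an alternative to the 5 and 8 above. In iWAT Nog by Bmp4 and Bmp4 by Nog were among the 3, each on 2 UMIs in the high cells. Apart from the shift in scaling and the altered thresholds and filters, the cause was not tested. Shares of all genes were not computed under the altered folds, low-value filters, scalings, UMI gates and state splits. Those counts are therefore not read against all genes. Scrublet called 561 of 29744 cells in iWAT (1.89%) and 0 of 28215 in iBAT, where it therefore did not work. Leaving out the highest scores instead (2243 and 2242 cells, chosen after seeing the data) moved none of the counts above by more than 1.5 times. Depth limits Bmp4, Bmp7 and Nog in iWAT, which rest on 55, 44 and 65 UMIs in Pdgfra-positive cells.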
